A study of Mus musculus with 6 samples.

Results

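Genes of TGF-beta, BMP and GDF signalling were followed in mouse embryonic diaphragm muscle with and without Schwann cells, the glial cells that line motor axons. The rule took every protein-coding gene whose symbol is Tgfb, Tgfbr, Bmp, Gdf, Smad or Id followed by a number and an optional letter, or begins with Bmpr, Acvr or Inhb. It found 53 genes of 23073 with a value, and Gdf1, which the rule also names, was not analysed here. Bmp2k entered by its letters alone, since it encodes a kinase, and Bmp1 encodes a metalloprotease that trims procollagen and frees BMP ligands from their antagonists. All libraries came from diaphragm muscle at E14.75 (embryonic age in days). The erbB3 WT group held wild-type 5 and wild-type 6. The erbB3 KO group held mutant 1 and mutant 2, from embryos without the neuregulin receptor ErbB3 and therefore without Schwann cells in the muscle. The third group, Wnt1-Cre, Ribotag, erbB3 WT, held Wnt1-Ribotag 1 and Wnt1-Ribotag 2. In it the Cre recombinase, driven by the Wnt1 promoter of the neural crest, switches on a hemagglutinin-tagged ribosomal protein, and RNA on the tagged ribosomes was pulled down with an antibody. Each Wnt1-Ribotag library came from the pooled diaphragms of a whole litter, in which only some embryos carried Cre and so had tagged ribosomes, and started from far less RNA than whole muscle, so that protocol and cell source cannot be told apart in any comparison with it. In whole muscle, fewer cells of a type and less RNA per cell cannot be told apart either.

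Ligands of this family bind as dimers to a type II receptor, a kinase that activates a type I receptor, which then phosphorylates receptor-regulated Smads. In general Smad2 and Smad3 carry TGF-beta and activin signals and Smad1, Smad5 and Smad9 carry BMP signals, Smad4 joins either set on DNA, and Smad6 and Smad7 hold the pathway back. The Id proteins block basic helix-loop-helix factors such as the myogenic ones, and their genes are classic targets of BMP signalling. In muscle the family is best known for myostatin (Mstn), which limits muscle mass, and for the fibroblast response to TGF-beta.

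Smads bind DNA with low affinity at the letters GTCTAGAC, a palindrome, at its shorter form CAGAC, and at the GC-rich letters GGCGCC. RefSeq promoter windows on GRCm38.p6, of 250 bases before and 50 bases after an annotated start, were found for 38 of the 53 genes (45 windows). On either strand GTCTAGAC was held by 1 of these 45 windows (2.22%), that of Smad6, against 0.213% of all 32851 windows. CAGAC was held by 19 of 45 (42.2%) against 49.6% of all windows, and GGCGCC by 11 of 45 (24.4%) against 11.9%. The following stretches run from 250 bases before to 10 bases after the start, read in the direction of transcription, with any of these motifs in capitals. They were chosen because Smad6 and Id3 encode feedback and target genes of the pathway, Gdf10 was the most abundant GDF ligand, and Gdf11 had the largest difference between Wnt1-Ribotag and mutant libraries.
Smad6: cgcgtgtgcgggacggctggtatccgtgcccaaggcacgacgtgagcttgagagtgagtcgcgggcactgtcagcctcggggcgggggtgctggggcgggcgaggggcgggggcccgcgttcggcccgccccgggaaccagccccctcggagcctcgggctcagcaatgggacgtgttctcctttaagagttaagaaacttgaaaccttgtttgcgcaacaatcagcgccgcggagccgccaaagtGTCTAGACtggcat
Id3: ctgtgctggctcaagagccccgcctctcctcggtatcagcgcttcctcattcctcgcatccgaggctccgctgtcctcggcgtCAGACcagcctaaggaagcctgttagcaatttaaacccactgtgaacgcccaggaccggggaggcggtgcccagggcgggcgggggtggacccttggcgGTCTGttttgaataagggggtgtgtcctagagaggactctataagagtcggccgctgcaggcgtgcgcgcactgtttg
Gdf10: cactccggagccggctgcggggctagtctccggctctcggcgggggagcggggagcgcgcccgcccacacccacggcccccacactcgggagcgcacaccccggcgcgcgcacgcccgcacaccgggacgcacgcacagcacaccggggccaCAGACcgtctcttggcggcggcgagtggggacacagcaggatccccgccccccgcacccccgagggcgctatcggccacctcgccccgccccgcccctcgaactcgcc
Gdf11: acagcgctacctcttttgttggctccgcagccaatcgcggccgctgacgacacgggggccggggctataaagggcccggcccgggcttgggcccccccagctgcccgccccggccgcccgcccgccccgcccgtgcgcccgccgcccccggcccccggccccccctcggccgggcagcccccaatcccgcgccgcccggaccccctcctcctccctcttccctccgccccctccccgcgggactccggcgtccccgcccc
The Smad6 stretch, chr9:64022050-64022309 on the minus strand, held the palindrome across the annotated start, beginning 4 bases before it. The Id3 stretch, chr4:136143572-136143831 on the plus strand, held CAGAC or its complement 2 times, beginning 167 and 68 bases before the start. The Gdf10 stretch, chr14:33923337-33923596 on the plus strand, held it 1 time, beginning 98 bases before the start. The Gdf11 stretch, chr10:128891709-128891968 on the minus strand, held none of the motifs, which says only that these letters are not in this window. Of the printed stretches Gdf11 was the richest in G and C (81.5%), followed by Gdf10 (78.5%), Smad6 (66.2%) and Id3 (62.3%).

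Values were deposited as RPKM, reads scaled to the length of the gene and to the mapped reads of the library, so levels can be set side by side between genes. Depth read from the floor of the values was 100178863 and 229922644 mapped reads in wild-type, 130755581 and 230216660 in mutant and 122770245 and 171266729 in Wnt1-Ribotag libraries. A gene without reads is listed at a floor worth 1 read. Sox10, a transcription factor of Schwann cells and their precursors, was at 2.89 and 2.16 RPKM in wild-type, 0.00854 and 0.0178 in mutant and 15.5 and 32.2 in Wnt1-Ribotag libraries. Erbb3 RNA itself was at 16.5 and 15.8 RPKM in wild-type and 21.5 and 11.9 in mutant libraries, so transcript level did not separate the genotypes, and the groups are those of the labels. Summed over 10 skeletal muscle genes, RPKM was 3490 and 2790 in wild-type, 5990 and 4230 in mutant and 3070 and 2930 in Wnt1-Ribotag libraries. The Wnt1-Ribotag sums lay between those of the wild-type libraries, so the pulled-down RNA was not free of muscle RNA. Liver genes were also present: the summed RPKM of 8 liver markers was 488 and 152 in wild-type, 19.6 and 11.9 in mutant and 273 and 177 in Wnt1-Ribotag libraries. The summed RPKM of 6 neuronal markers was 8.92 and 45.2 in wild-type, 4.19 and 7.01 in mutant and 93.8 and 419 in Wnt1-Ribotag libraries.

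Every gene of the group was above the floor in the 4 whole-muscle libraries, and 48 were above it in all 6 libraries. In wild-type muscle 15 genes averaged at least 10 RPKM, 25 averaged 1 to 10 RPKM and 13 averaged under 1 RPKM. A mean of at least 0.5 RPKM over the 4 libraries of a comparison was required for a test, which 42 genes met in all 3 comparisons. The 11 genes below it were 10 of the 26 ligand and subunit genes (Bmp8a, Bmp10, Bmp15, Gdf3, Gdf5, Gdf7, Gdf15, Inhbb, Inhbc and Inhbe) and the type I receptor gene Acvr1c.

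**Figure D1:**
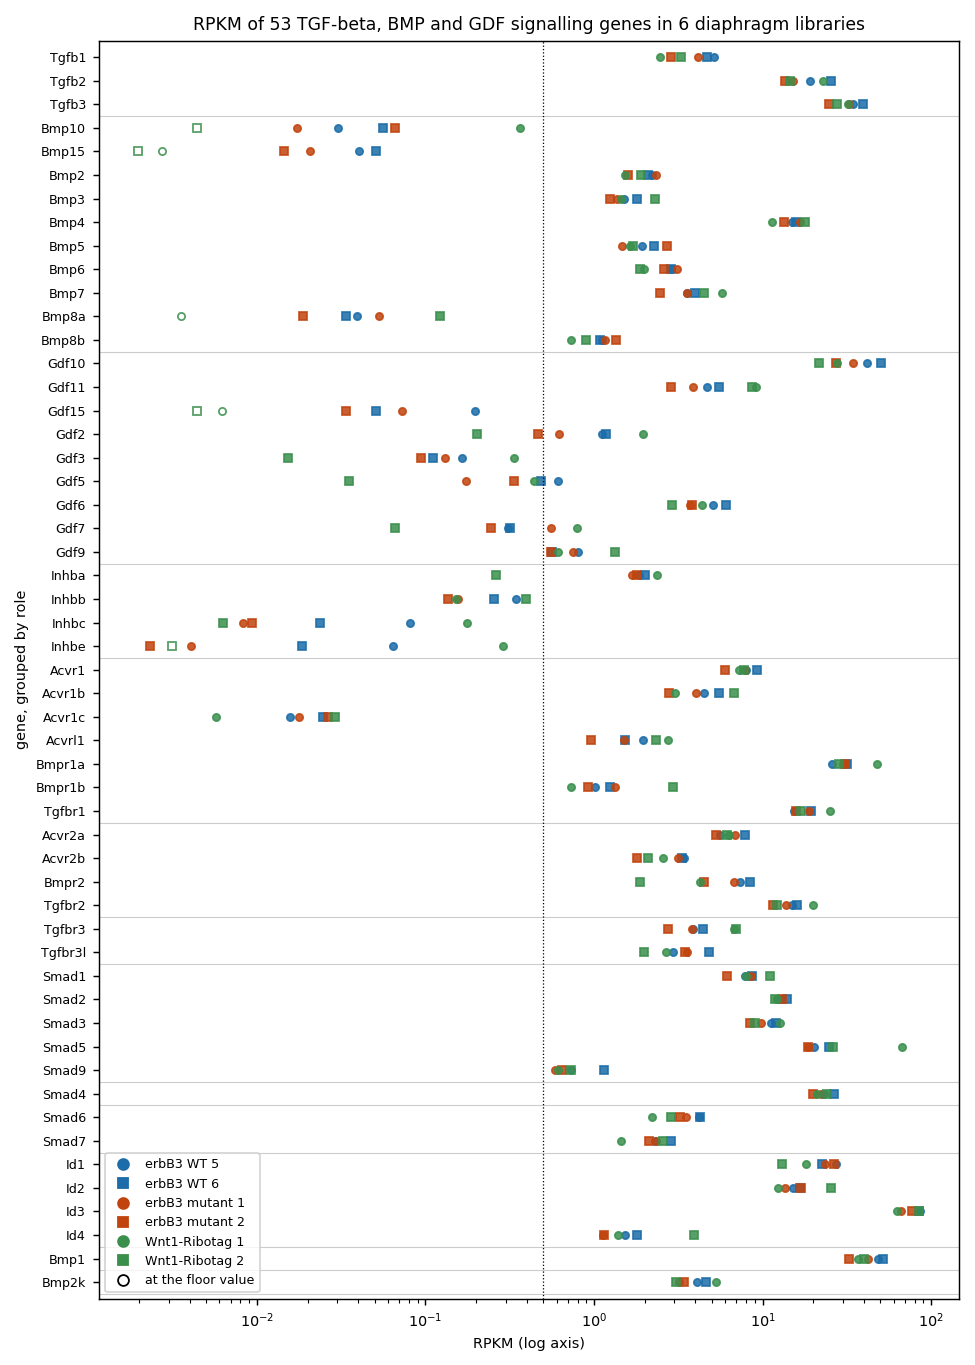
RPKM (horizontal log axis) of each of the 53 genes, grouped by role, in the 6 libraries (colour for the group, circle or square for the library, open symbols for values at the floor). The dotted line marks 0.5 RPKM, the level needed for a test, and Id3 lies at 62.4 to 86.2 RPKM, exceeded only by Smad5 in Wnt1-Ribotag 1 (67.0 against 62.4).

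Among ligands, Tgfb3, which encodes TGF-beta 3, was the most abundant of the 3 Tgfb genes. It was at 34.4 and 39.6 RPKM in wild-type, 32.7 and 24.9 in mutant and 32.2 and 27.8 in Wnt1-Ribotag libraries, and made up 56.0% to 62.8% of the summed RPKM of the 3 genes in every library. Tgfb1 was lower than Tgfb2 and Tgfb3 in all 6 libraries, at 2.46 to 5.17 RPKM. Bmp4, a ligand of ventral mesoderm, led the BMP ligands at 14.9 and 15.8 RPKM in wild-type, 16.6 and 13.4 in mutant and 11.4 and 17.8 in Wnt1-Ribotag libraries, and its groups overlapped. Gdf10, also called BMP3b, led the GDF ligands with 76.3% to 78.0% of their summed RPKM in whole muscle and 61.0% and 62.1% in Wnt1-Ribotag libraries. Inhba, the activin beta A subunit, was the only activin or inhibin subunit gene above the test level, at 1.86 and 2.01 RPKM in wild-type, 1.69 and 1.80 in mutant and 2.35 and 0.262 in Wnt1-Ribotag libraries.

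Among receptors, Bmpr1a was the most abundant type I receptor gene at 25.7 and 31.6 RPKM in wild-type, 30.0 and 30.9 in mutant and 47.6 and 28.6 in Wnt1-Ribotag libraries. Tgfbr1, the type I receptor for TGF-beta, followed at 15.3 and 19.5 RPKM in wild-type, and its partner Tgfbr2 led the type II receptors with a mean of 15.5 RPKM ± 0.776 (SD, n = 2). The level of Tgfbr2 lay within the gap between the wild-type libraries for Tgfbr1. Acvr1b, an activin type I receptor, was at 4.49 and 5.51 RPKM in wild-type libraries, Acvrl1, the endothelial type I receptor ALK1, at 1.95 and 1.53, and Bmpr1b at 1.01 and 1.25. Tgfbr3, or betaglycan, a co-receptor that presents TGF-beta 2 to its receptors, was at 3.85 and 4.42 RPKM. Tgfbr3l could not be separated from Gm49320, which shares 52.2% of its exon bases on the same strand.

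Among Smads, the common Smad4 and the BMP-responsive Smad5 were the most abundant in wild-type muscle, at 23.1 and 26.4 RPKM for Smad4 and 20.2 and 24.8 RPKM for Smad5. Smad2 was at 12.8 and 13.9 RPKM, Smad3 at 11.2 and 12.0, Smad1 at 7.83 and 8.60 and Smad9 at 0.735 and 1.14. The inhibitory Smad6 was at 4.17 and 4.24 RPKM in wild-type, 3.51 and 3.25 in mutant and 2.21 and 2.87 in Wnt1-Ribotag libraries. Smad7, which blocks TGF-beta as well as BMP signals, was lower than Smad6 in all libraries, at 1.45 to 2.87 RPKM. Id3 was the most abundant of the 53 genes in every library but Wnt1-Ribotag 1, where Smad5 exceeded it, at 86.2 and 85.2 RPKM in wild-type, 66.4 and 76.5 in mutant and 62.4 and 84.6 in Wnt1-Ribotag libraries. It held 63.2% to 67.5% of the summed RPKM of the 4 Id genes. Bmp1 was the next most abundant in wild-type muscle, at 48.1 and 51.8 RPKM. Bmp2k was at 3.08 to 5.28 RPKM over the 6 libraries, and 14.0% of its exon bases lie opposite those of Paqr3.

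Replicate libraries of whole muscle were close, and those of Wnt1-Ribotag RNA were not. For the 42 genes the median difference between replicates on the log2 scale was 0.19 in wild-type, 0.25 in mutant and 0.44 in Wnt1-Ribotag muscle, against 0.13, 0.19 and 0.38 for all genes tested. More than 1.5-fold apart were 1 gene in wild-type (Tgfbr3l), 2 in mutant (Bmp5 and Acvr2b) and 15 (35.7%, against 30.6% of all genes) in Wnt1-Ribotag libraries. Smad5 was among the latter at 67.0 and 26.0 RPKM, and so were Id4 at 1.39 and 3.90 RPKM, Bmpr1b at 0.729 and 2.94 RPKM and Inhba, given above. Most genes of the group were higher in wild-type 6 than in wild-type 5 (33 of 42, against 60.7% of all genes) and lower in mutant 2 than in mutant 1 (29 of 42, against 60.4%). Wild-type 6 and mutant 2 were the deepest libraries.

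The comparison of erbB3 mutant with wild-type muscle asked which RNAs of the muscle differ between the genotypes. The study reports denervation of mutant diaphragm at this age, so absence of Schwann cells and loss of innervation cannot be told apart. None of the 42 genes tested passed. On the log2(RPKM + 0.5) scale none was 2-fold different, though the mean RPKM of Gdf2 in mutant muscle was 0.474 of that in wild-type. Levels were mostly somewhat lower in mutant muscle, with the largest differences in ligand genes: Gdf2, Tgfb2, Gdf10 and Gdf11. Of the 42 genes tested 39 (92.9%) had a log2 fold change below 0, against 67.0% of 14052 genes, and their median was -0.27 against -0.10 for all genes. With a library left out the median of the group lay between -0.35 against -0.13 (without wild-type 5) and -0.16 against -0.06 (without mutant 2), with -0.19 against -0.08 without wild-type 6. With median-ratio scaling of the libraries, which sets the typical gene ratio between libraries to 1, 30 genes (71.4%, against 51.7% of all genes) were below 0 and the median was -0.18 against -0.01. Relative to the median of all genes, 30 of 42 were lower and 12 higher. The summed skeletal muscle genes, given above, moved the other way and were higher in both mutant libraries (9 of 10 above 0, median 0.31). Tendon (4 of 5 above 0, median 0.23) and mesothelial markers (4 of 5, median 0.14) also did. Below 0 were liver (8 of 8, median -2.84), neuronal (5 of 5, -1.35) and erythroid markers (5 of 6, -0.69). Immediate early genes, taken as markers of tissue handling, were below 0 as well (4 of 5, -0.34). The part of these in the lower values was not tested.

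The test was limma on log2(RPKM + 0.5) with Benjamini-Hochberg adjustment over all genes, and 0 of the 42 passed the threshold of 0.05, against 0.171% of all genes. At an unadjusted p under 0.05 there were 11 genes (26.2%, against 12.0% of all genes), all lower in mutant muscle: Tgfb1, Tgfb2, Gdf2, Gdf6, Gdf10, Gdf11, Acvr1b, Bmpr2, Smad3, Id4 and Bmp1. Both mutant libraries were below both wild-type libraries for 26 genes (61.9%, against 37.4% of all genes), and above them for Bmp8b alone (2.38%, against 12.7%). At least 1.5-fold lower in all 4 pairs of libraries on the same scale were 0 genes (against 0.961% of all genes), and 0 were that much higher (against 0.334%). The added 0.5 decides this for low genes: with 0.1 added in its place the count was 1, Gdf2 (2.38%, against 1.98% of all genes in either direction). The study describes the whole-muscle libraries of a genotype as distinct biological samples.

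The Tgfb ligand genes were lower in both mutant libraries than in both wild-type libraries. Tgfb2 was at 19.0 and 25.5 RPKM in wild-type and 15.2 and 13.6 in mutant muscle. Its log2 fold change was -0.60 (SE 0.17, 95% interval -0.99 to -0.21, adjusted p = 0.281, n = 2 and 2). Tgfb1 was at 5.17 and 4.66 RPKM in wild-type and 4.16 and 2.88 in mutant muscle, a log2 difference of -0.45 (SE 0.19), and Tgfb3 differed by -0.37 (SE 0.17). Mutant 2 was the lowest library for each of these 3 genes among the 4 of whole muscle, and without it Tgfb1 differed by -0.22 and Tgfb3 by -0.17. With a library left out the difference of Tgfb2 ranged from -0.81 (without wild-type 5) to -0.40 (without wild-type 6).

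GDF ligand genes were below 0 in mutant muscle as well, 5 of 5 by the sign of the fold change, with a median of -0.54, and none passed the test. Gdf9, a ligand of the oocyte, was the exception in size, at 0.807 and 0.567 RPKM in wild-type and 0.755 and 0.558 in mutant muscle. Its groups overlapped, and its log2 fold change of -0.03 (95% interval -0.47 to 0.40) lay above the median of all genes. Gdf10 was at 41.6 and 50.6 RPKM in wild-type and 34.6 and 27.3 in mutant muscle, so the groups did not overlap. Its log2 fold change was -0.57 (SE 0.17, 95% interval -0.96 to -0.18, adjusted p = 0.307). Gdf11, a close relative of myostatin, was at 4.66 and 5.50 RPKM in wild-type and 3.87 and 2.87 in mutant muscle, with a difference of -0.54 on the log2 scale (SE 0.18, 95% interval -0.95 to -0.12, adjusted p = 0.370) that was -0.35 without mutant 2. Gdf6, a ligand of joint and tendon development, was at 5.05 and 6.04 RPKM in wild-type and 3.70 and 3.81 in mutant muscle, with a difference of -0.50 on the log2 scale (SE 0.15, adjusted p = 0.329). The 3 cartilage markers tested were also lower in both mutant libraries (median -0.53, and a summed RPKM of 3.21 and 3.33 against 5.98 and 6.11 over all 6 listed). Of 5 tendon markers 4 were above 0, Tnmd and Kera passed as higher in mutant muscle, and the sum was 126 and 133 against 84.4 and 79.3 RPKM. The part of these tissues in the Gdf6 value was not tested. Gdf2, which encodes the circulating ligand BMP9 made largely in liver, was at 1.12 and 1.18 RPKM in wild-type and 0.619 and 0.468 in mutant muscle. It had the largest difference of the 42 genes, with a log2 fold change of -0.66 (SE 0.17, 95% interval -1.05 to -0.27, adjusted p = 0.235). Gdf2 lies 3055 bases downstream of Gdf10 on the same strand of chromosome 14 (GENCODE M21, GRCm38). Summed liver markers, given above, were lower in both mutant libraries too (8 of 8 markers below both wild-type libraries). Within wild-type Gdf2 was at 1.12 and 1.18 RPKM where the liver sum was 488 and 152, and within mutant muscle it was at 0.619 and 0.468 RPKM with sums of 19.6 and 11.9. Within Wnt1-Ribotag it was at 1.96 and 0.202 RPKM with sums of 273 and 177. The library with the higher liver sum thus had the higher Gdf2 in the mutant and Wnt1-Ribotag groups and not in wild-type. The part of liver RNA in the Gdf2 difference was not tested.

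BMP ligands were the role with a median nearest to 0. Inhba, the only activin or inhibin subunit gene tested, lay nearer to the median of all genes (-0.12 beside -0.10). Of 7 tested, 6 were below 0 and the median log2 fold change was -0.05. Bmp4 differed by -0.04 (95% interval -0.38 to 0.30) and Bmp6 by -0.01 (95% interval -0.38 to 0.35). Bmp8b was the gene that was higher in both mutant libraries, at 1.12 and 1.08 RPKM in wild-type and 1.17 and 1.36 in mutant muscle (log2 fold change 0.14, adjusted p = 0.690). Bmp8a is its paralogue, at 0.0391 and 0.0340 RPKM in wild-type and 0.0529 and 0.0188 in mutant muscle, and how the counting treated reads that match both genes is not given in the sources used here.

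Receptor and Smad genes had medians of -0.36 (4 type II receptors), -0.15 (6 type I receptors) and -0.26 (5 receptor-regulated Smads). Acvr1b was at 4.49 and 5.51 RPKM in wild-type and 4.04 and 2.79 in mutant muscle, with a log2 fold change of -0.50 (SE 0.20, 95% interval -0.96 to -0.05, adjusted p = 0.393). Bmpr2, the type II receptor for BMPs, was at 7.37 and 8.47 RPKM in wild-type and 6.81 and 4.47 in mutant muscle (log2 fold change -0.48, SE 0.20, adjusted p = 0.410). For both genes mutant 2 was much the lower mutant library, and without it the differences were -0.27 for Acvr1b and -0.20 for Bmpr2. Bmpr1a differed by 0.09 (95% interval -0.24 to 0.43) and Tgfbr1 by -0.01 (95% interval -0.39 to 0.38), and their groups overlapped. The common Smad4 differed by -0.22 (SE 0.14), and by -0.32 to -0.13 with a library left out.

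Among readout genes of the pathway, the Id genes lay on both sides of 0. Id1 differed by 0.02 (95% interval -0.33 to 0.36) and Id2 by -0.07 (95% interval -0.42 to 0.28), with groups that overlapped. Id3 differed by -0.26 (95% interval -0.58 to 0.05) and Id4 by -0.40 (95% interval -0.77 to -0.03, adjusted p = 0.399), each lower in both mutant libraries. With a library left out the difference of Id3 was -0.37 to -0.16. Id4 was at 1.53 and 1.79 RPKM in wild-type and 1.13 and 1.14 in mutant muscle. The mean RPKM of Smad6 in mutant muscle was 0.805 of that in wild-type, and that of Smad7 was 0.862, neither with a passed test. Bmp1 was at 42.5 and 32.5 RPKM in mutant muscle, with a log2 difference of -0.42 (SE 0.16, adjusted p = 0.391) that was -0.23 without mutant 2.

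**Figure D2:**
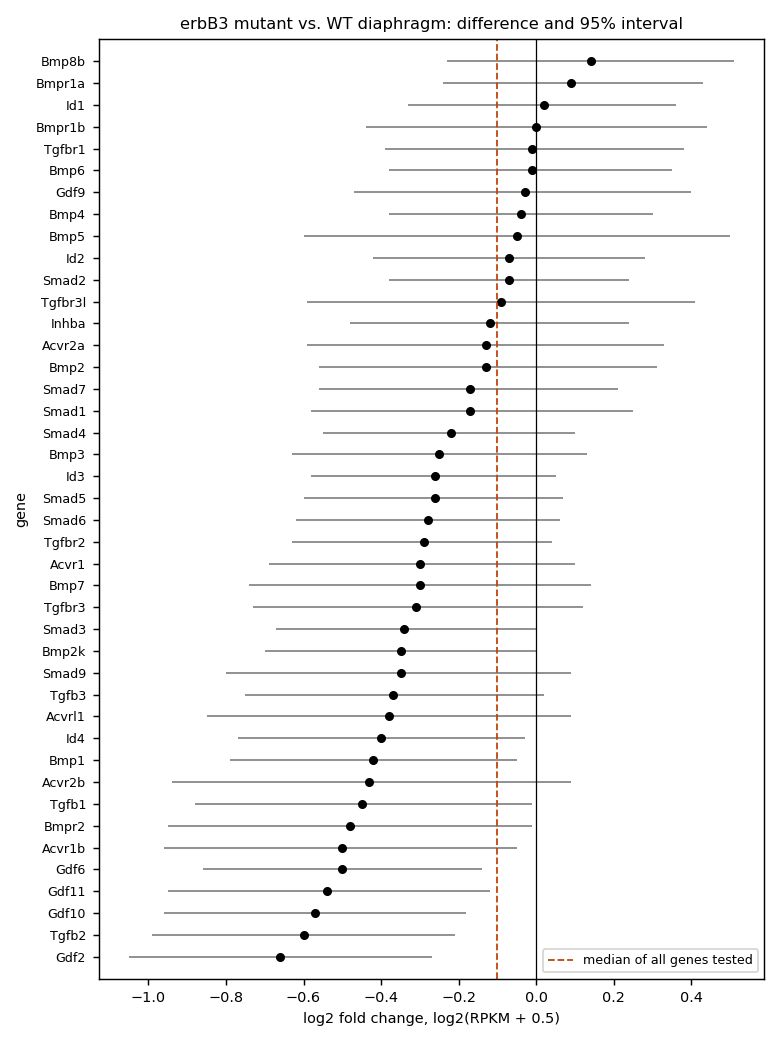
Log2 fold change of the 42 tested genes in erbB3 mutant against wild-type muscle (points, on the log2(RPKM + 0.5) scale) with the 95% interval from limma (bars). The dashed line is the median of all genes at -0.10, and most points lie to its left, with Gdf2 lowest at -0.66.

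The 11 genes under the test level gave values only. Inhbb, the activin beta B subunit, was at 0.344 and 0.254 RPKM in wild-type and 0.157 and 0.137 in mutant muscle. Gdf5, a ligand of joint formation, was at 0.613 and 0.486 RPKM in wild-type and 0.174 and 0.336 in mutant muscle, and 40.3% of its exon bases lie opposite those of Gm15557. Both were lower in both mutant libraries. The part of cartilage and tendon RNA, given above by its markers, in the Gdf5 values was not tested. Inhbc and Inhbe, activin subunits of the hepatocyte that lie 1910 bases apart on chromosome 10, were at 0.0810 and 0.0236 RPKM (Inhbc) and 0.0641 and 0.0186 RPKM (Inhbe) in wild-type muscle. In mutant muscle they were at 0.00829 and 0.00942 RPKM (Inhbc) and 0.00409 and 0.00233 RPKM (Inhbe). At the depths given, these mutant values lie at or near a floor worth 1 read and rest on very few reads. The floor of Inhbe in Wnt1-Ribotag 2 was 0.00313 RPKM. Within wild-type muscle both were higher in wild-type 5, the library with the higher sum of liver markers, and in mutant muscle, where that sum was lowest, both were lower than in either wild-type library. The part of liver RNA in these values was not tested. Gdf15, a stress-induced ligand, was at 0.196 and 0.0511 RPKM in wild-type and 0.0728 and 0.0340 in mutant muscle, and its groups overlapped. The remaining 6 genes averaged at most 0.401 RPKM in either group, with Gdf7 the highest.

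**Figure D3:**
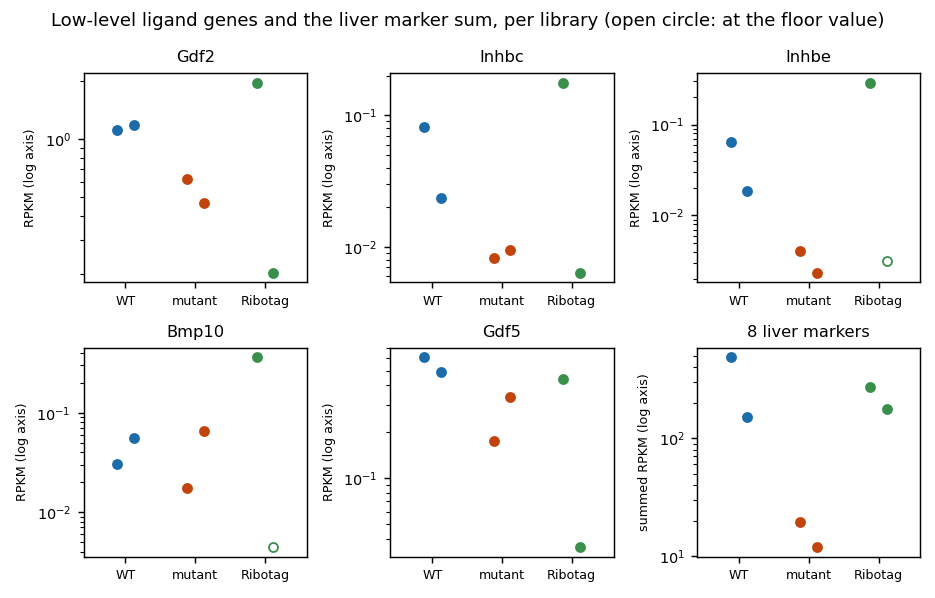
RPKM (log axes, each panel with its own range) of 5 ligand genes of low level and the summed RPKM of 8 liver markers, with a point for each library and open circles for values at the floor. Gdf2, Inhbc and Inhbe were lower in both mutant libraries, as was the liver sum (19.6 and 11.9 against 488 and 152), and Wnt1-Ribotag 2 was the lowest or next to lowest library for all 5 genes.

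The comparison of Wnt1-Ribotag RNA with whole wild-type muscle asked which RNAs are relatively abundant on ribosomes of neural crest-derived cells, which the labels take for Schwann cells. Of the 42 genes, Gdf11 and the co-receptor gene Tgfbr3 were higher in both Wnt1-Ribotag libraries by similar amounts, and Gdf10 and Bmpr2 were lower. None passed the test. Of the 42 genes 28 were below 0 (66.7%, against 54.4% of all genes), and the median log2 fold change was -0.16 against -0.05. Without wild-type 6 the median was -0.06 against -0.03 for all genes, and without wild-type 5 it was -0.24 against -0.07. All 10 Schwann lineage markers were above 0 in this comparison with a median of 2.69, and the 6 neuronal markers likewise with 2.68. The part of neuronal RNA in the values that follow was not tested.

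By limma 0 of the 42 genes passed, against 0.00694% of 14418 genes, and 7 (16.7%, against 19.5%) had an unadjusted p under 0.05. With a single Wnt1-Ribotag library in the fit 12 (without Wnt1-Ribotag 1) or 15 (without Wnt1-Ribotag 2) passed, on the assumption that the lone library varies like the wild-type group. These were 28.6% and 34.9% of the genes tested, against 31.0% and 41.8% of all genes in the same fits. Groups did not overlap for 5 genes that were higher (11.9%, against 23.3% of all genes), namely Bmp7, Gdf11, Acvrl1, Tgfbr3 and Smad5, and for 18 that were lower (42.9%, against 31.0%). Gdf11 exceeded wild-type by 1.5-fold or more in each of the 4 pairs (2.38% of the genes, against 4.20% of all), and Bmpr2 was lower by as much in each (2.38%, against 4.30%). These shares were below or near those of all genes, other than the share of lower genes.

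Gdf11 was at 9.19 and 8.67 RPKM in Wnt1-Ribotag libraries, above the 4.66 and 5.50 RPKM of wild-type muscle, a log2 fold change of 0.76 (SE 0.19, 95% interval 0.29 to 1.24, adjusted p = 0.180). Tgfbr3 was at 6.80 and 6.93 RPKM against 3.85 and 4.42, a log2 fold change of 0.67 (SE 0.19, 95% interval 0.19 to 1.14, adjusted p = 0.193). For these 2 genes the Wnt1-Ribotag libraries were within 1.5-fold of each other. Smad5 was at 67.0 and 26.0 RPKM against 20.2 and 24.8, and its fold change of 0.88 (SE 0.46, 95% interval -0.29 to 2.06, adjusted p = 0.353) was 1.56 without Wnt1-Ribotag 2 and 0.21 without Wnt1-Ribotag 1. Bmp7, a ligand that can also induce sympathetic neurons, was at 5.75 and 4.50 RPKM against 3.58 and 3.97 (log2 fold change 0.39, adjusted p = 0.376). Its fold change was 0.23 to 0.55 with a library left out.

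On the lower side, Bmpr2 was at 4.26 and 1.87 RPKM in Wnt1-Ribotag libraries against 7.37 and 8.47 in wild-type muscle. Its log2 fold change of -1.32 (SE 0.37, 95% interval -2.26 to -0.38, adjusted p = 0.193) was the largest of the 42 genes with both libraries in the fit. It was -0.82 without Wnt1-Ribotag 2, where Smad5 at 1.56 was larger, and -1.83 without Wnt1-Ribotag 1. Gdf10 was at 27.7 and 21.6 RPKM against 41.6 and 50.6, a log2 fold change of -0.89 (SE 0.21, 95% interval -1.42 to -0.36, adjusted p = 0.178). Tgfb1 differed by -0.70 (SE 0.22), Id1 by -0.67 (SE 0.23) and Smad6 by -0.64 (SE 0.22), with adjusted p of 0.215, 0.224 and 0.230. Id1 was at 18.1 and 13.0 RPKM in Wnt1-Ribotag libraries, below the 27.3 and 22.6 RPKM of wild-type muscle, and its difference was -0.44 without Wnt1-Ribotag 2. Inhba had a fold change of -0.72 (SE 0.65, adjusted p = 0.570) that rested on Wnt1-Ribotag 2 and turned to 0.23 without it. Marker lists of other cell types went different ways in this comparison. Both Wnt1-Ribotag libraries were below both wild-type libraries for 6 of 8 endothelial markers (median -0.36, summed RPKM 44.6 and 42.8 against 55.4 and 59.5), for 6 of 6 macrophage markers (median -0.89, 59.7 and 51.5 against 109 and 98.0) and for 4 of 5 mesothelial markers (median -0.79, 80.6 and 59.9 against 136 and 123). Connective tissue markers were lower in this way for 4 of 8 and higher for 1 (median -0.35, 1500 and 1640 against 1930 and 1880). Skeletal muscle markers were 5 above and 5 below 0 (median -0.06), and erythroid markers 3 and 3 (median -0.07). None of these markers passed the test, and their part in the lower values of Bmpr2, Gdf10, Tgfb1, Id1 and Smad6 was not tested.

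The comparison of Wnt1-Ribotag RNA with mutant muscle set the pulled-down RNA against muscle that lacks Schwann cells, and shares its Wnt1-Ribotag libraries with the comparison above. Gdf11 came nearest to the threshold, followed by Tgfbr3, and then by Id1, Smad5 and Acvrl1 with similar adjusted p. Of the 42 genes 26 were above 0 and 16 below it (38.1%, against 47.0% of all genes), with a median of 0.09 against 0.04 that was 0.02 against 0.11 without Wnt1-Ribotag 1 and 0.23 against 0.10 without mutant 1. By limma 0 genes passed, against 1.19% of 14325 genes, and 6 (14.3%, against 19.3%) had an unadjusted p under 0.05. With a single Wnt1-Ribotag library 7 (without Wnt1-Ribotag 1) or 5 (without Wnt1-Ribotag 2) passed, on the same assumption, which was 17.1% and 11.6% against 17.8% and 26.0% of all genes. Groups did not overlap for 7 higher genes (16.7%, against 29.7% of all genes), which were Bmp3, Bmp7, Gdf11, Acvrl1, Tgfbr3, Smad5 and Id4. They did not overlap for 6 lower genes (14.3%, against 24.4%), which were Bmp6, Bmp8b, Bmpr2, Tgfbr3l, Smad6 and Id1. At least 1.5-fold higher in all 4 pairs were Gdf11 and Tgfbr3 (4.76%, against 6.88% of all genes), and 0 were that much lower (against 3.17%).

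Gdf11 was at 3.87 and 2.87 RPKM in mutant and 9.19 and 8.67 RPKM in Wnt1-Ribotag libraries, a log2 fold change of 1.30 (SE 0.25, 95% interval 0.70 to 1.89, adjusted p = 0.0763). With all 6 libraries in a single limma fit, in which 692 of 14325 genes passed, its adjusted p was 0.0258. Over the 3 groups Gdf11 was lowest in mutant, intermediate in wild-type and highest in Wnt1-Ribotag libraries, with no overlap between neighbours. Tgfbr3 was at 3.80 and 2.75 RPKM in mutant libraries, a log2 fold change of 0.98 (SE 0.26, 95% interval 0.36 to 1.59, adjusted p = 0.136, and 0.0495 in the fit of 6 libraries). The order of its groups was that of Gdf11, with mutant 1 and wild-type 5 close at 3.80 and 3.85 RPKM. All tested Schwann lineage (10, median 3.32), neuronal (6, median 4.1) and liver markers (7, median 3.22) were above 0 in this comparison. Below 0 were 8 of 10 skeletal muscle (median -0.51), 6 of 6 macrophage (-0.64) and 5 of 5 mesothelial markers (-1.02). The part of these cell types in the Gdf11 and Tgfbr3 values was not tested. Smad5 differed by 1.15 (SE 0.43, 95% interval 0.13 to 2.17, adjusted p = 0.222), and its difference was 0.47 without Wnt1-Ribotag 1 and 1.82 without Wnt1-Ribotag 2. Acvrl1 averaged 1.23 RPKM ± 0.376 (SD, n = 2) in mutant and 2.54 RPKM ± 0.307 (SD, n = 2) in Wnt1-Ribotag libraries, with a log2 fold change of 0.82 (SE 0.32, 95% interval 0.07 to 1.58, adjusted p = 0.232). Of 8 endothelial markers 2 were above and 6 below 0 in this comparison, with a summed RPKM of 62.2 and 46.7 in mutant and 44.6 and 42.8 in Wnt1-Ribotag libraries. Their part in the Acvrl1 value was not tested. Bmpr2 differed by -0.84 (SE 0.40, 95% interval -1.79 to 0.10, adjusted p = 0.302), with -0.34 without Wnt1-Ribotag 2 and -1.35 without Wnt1-Ribotag 1, and Id1, at 23.6 and 26.6 RPKM in mutant muscle, by -0.69 (SE 0.25, adjusted p = 0.214).

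**Figure D4:**
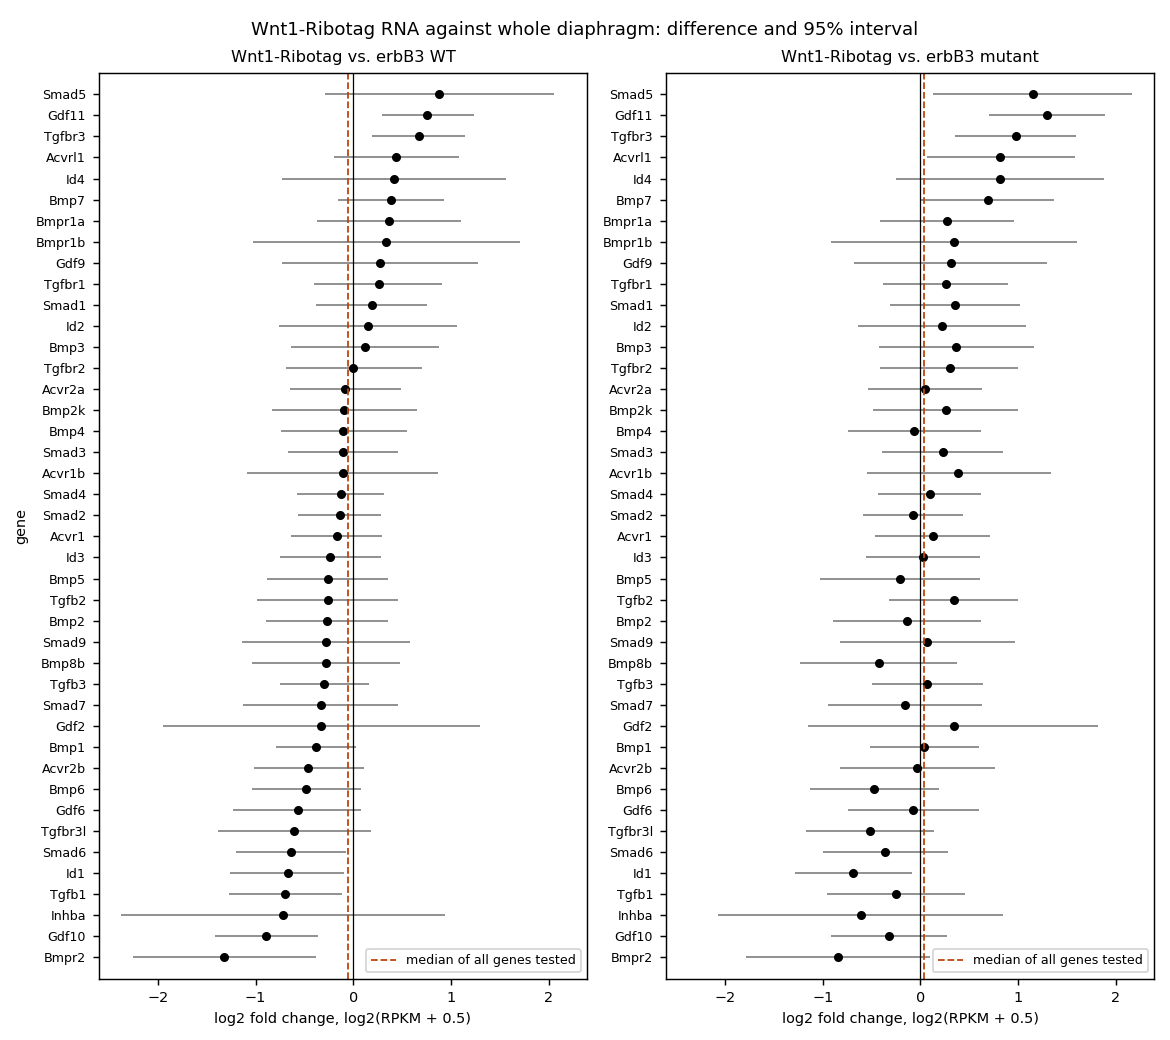
Log2 fold change of the 42 tested genes in Wnt1-Ribotag libraries against wild-type (left) and mutant muscle (right), with 95% intervals from limma (bars) and the median of all genes (dashed). Genes keep the order of the left panel, Gdf11 lies at 0.76 and 1.30, Bmpr2 at -1.32 and -0.84, and the intervals of Inhba and Gdf2 are the widest.

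**Figure D5:**
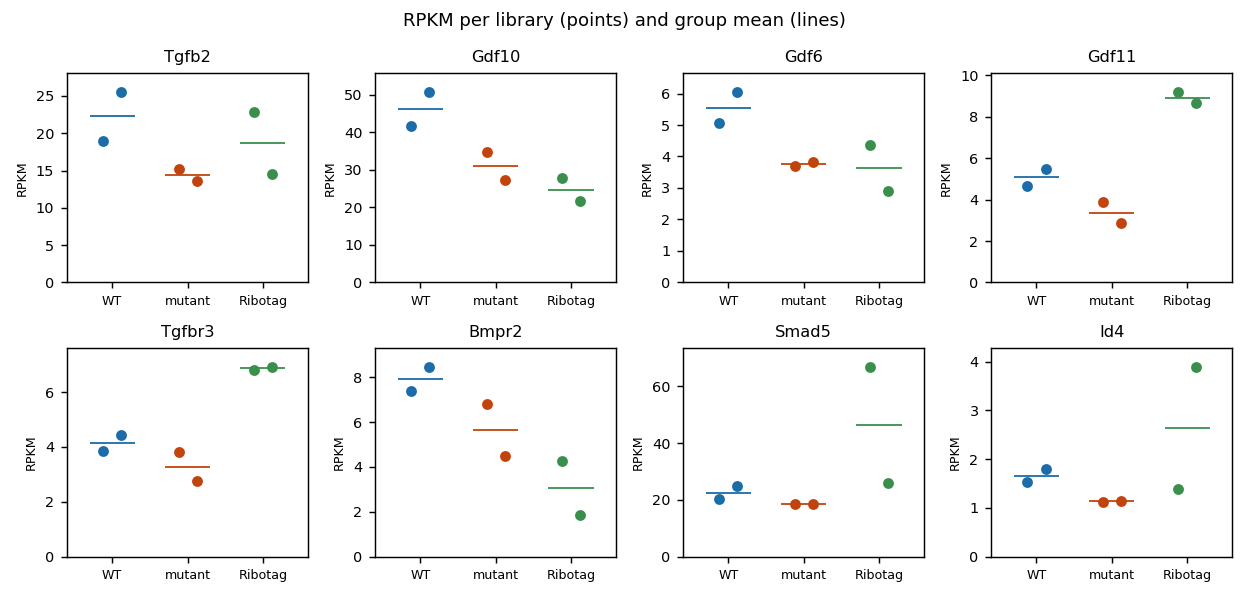
RPKM (vertical axes from 0) of 8 genes in each library (points, libraries in numerical order within a group) with the group mean of 2 libraries (lines). Gdf11 and Tgfbr3 were above all whole-muscle libraries in both Wnt1-Ribotag libraries, whereas Smad5 and Id4 were led by 1 of the 2.

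Genes of low level differed widely between the Wnt1-Ribotag libraries. Of the 11 genes under the test level, 9 were above the floor in at least 1 of these libraries, and 6 of the 9 were higher in Wnt1-Ribotag 1 and 3 (Bmp8a, Inhbb and Acvr1c) in Wnt1-Ribotag 2. Bmp10, a ligand of heart trabeculae, was at 0.364 RPKM in Wnt1-Ribotag 1 and at the floor in Wnt1-Ribotag 2, against 0.0302 and 0.0560 RPKM in wild-type muscle. Gdf2 was at 1.96 and 0.202 RPKM, Gdf7, which acts on dorsal spinal cord neurons, at 0.790 and 0.0664 RPKM, and Inhbe at 0.288 RPKM and the floor. Bmp15 and Gdf15 were at the floor in both Wnt1-Ribotag libraries, and Bmp8a in Wnt1-Ribotag 1 alone. The summed liver markers differed less between these libraries (273 and 177).

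Other genes of the pathway were taken from lists of co-receptors and further ligands, secreted antagonists and carriers, intracellular modulators, TGF-beta response genes and BMP response genes. By limma 0 genes of these lists passed in any of the 3 comparisons. In mutant against wild-type muscle 1 of 9 further ligands and co-receptors, 3 of 32 antagonists and carriers, 5 of 21 modulators, 3 of 13 TGF-beta response genes and 0 of 6 BMP response genes were above 0. Their medians were -0.19, -0.30, -0.18, -0.24 and -0.23, beside -0.10 for all genes. Tll1, a protease related to Bmp1, was at 2.74 and 3.15 RPKM in wild-type and 1.54 and 1.63 in mutant muscle (log2 fold change -0.72, SE 0.16, adjusted p = 0.154). Fst, the activin trap follistatin, was at 6.64 and 9.30 RPKM in wild-type and 5.30 and 4.61 in mutant muscle (-0.62, adjusted p = 0.309). Tgfbi, a matrix protein induced by TGF-beta, was at 46.3 and 56.2 RPKM in wild-type and 19.9 and 33.0 in mutant muscle (-0.98, SE 0.23, adjusted p = 0.184), and fibronectin (Fn1) at 185 and 188 against 146 and 113 RPKM (-0.54, adjusted p = 0.321). Rgma, a BMP co-receptor, was at 15.4 and 13.9 against 13.0 and 7.48 RPKM, and the modulators Pmepa1 and Ski differed by -0.47 and -0.32. Gata2 and Bambi led the BMP response genes at -0.85 and -0.31, and Eng, a co-receptor of endothelium, differed by -0.35. The 8 connective tissue markers summed to 1930 and 1880 RPKM in wild-type and 2040 and 1370 in mutant muscle, and their part in the matrix genes was not tested.

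In Wnt1-Ribotag against wild-type muscle the medians of the same lists were -0.32, -0.18, 0.02, -0.33 and 0.16, beside -0.05 for all genes, and against mutant muscle 0.03, 0.07, 0.21, 0.01 and 0.57, beside 0.04. Rgmb, a BMP co-receptor of the nervous system, was at 40.7 and 57.1 RPKM in Wnt1-Ribotag, 17.3 and 16.6 in wild-type and 18.3 and 10.6 in mutant libraries. Its log2 fold changes were 1.48 against wild-type (SE 0.22, adjusted p = 0.148) and 1.76 against mutant muscle (SE 0.32, adjusted p = 0.0666). Pmepa1, a feedback inhibitor of TGF-beta signals, was at 19.3 and 13.9 RPKM in Wnt1-Ribotag, 7.67 and 8.81 in wild-type and 6.57 and 5.09 in mutant libraries, with fold changes of 0.96 (adjusted p = 0.178) and 1.43 (adjusted p = 0.0701). Both genes were above all whole-muscle libraries in both Wnt1-Ribotag libraries. Of the 8 connective tissue markers 2 were above and 6 below 0 against wild-type. Ltbp4, which anchors latent TGF-beta, was at 18.6 and 16.5 RPKM in Wnt1-Ribotag and 42.8 and 40.2 in wild-type libraries (-1.22, SE 0.16, adjusted p = 0.134), Acta2 at 168 and 117 against 286 and 296 RPKM, and decorin (Dcn) at 167 and 170 against 309 and 314 RPKM in wild-type and 356 and 364 RPKM in mutant libraries. The decoy receptor gene Bambi was at 3.03 and 3.34 RPKM against 6.19 and 6.48, and myostatin at 4.20 and 2.39 against 5.41 and 5.56. Gata2 and Hey2 were led by Wnt1-Ribotag 2, at 4.13 and 17.7 RPKM and at 1.30 and 5.24 RPKM, as were the neuronal markers, and Sostdc1 at 0.771 and 7.84 RPKM likewise. Tab2 differed by 0.63 from mutant muscle.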

How the data were processed

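RNA-Seq of diaphragm muscle was analysed in 6 libraries, 2 for each group, with groups and replicate numbers from the labels. The authors deposited RPKM and, per the labels, aligned reads with STAR to mm9. The counting program, annotation and use of strand are not given in the sources used here. Overlapping genes are therefore uncertain, among them Bmp5, of whose exon bases 46.7% lie opposite Gm26903. A deposited mark of 1 or 0 says whether a gene sits at its floor, from which depth was read. Counts were not recovered, so that counting error is unknown for single genes.

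Symbols and positions came from GENCODE M21 on GRCm38 by Ensembl gene identifier (21586 of 23076 matched), a build other than that of the reads, and promoters from RefSeq. Genes that averaged 0.5 RPKM or more over the 4 libraries compared were tested on log2(RPKM + 0.5) with limma 3.58.1 (lmFit, eBayes with a trend) in R 4.3.3, without a block, with Benjamini-Hochberg adjustment over all genes and a threshold of 0.05. Fold changes are on that scale and understate changes of low genes. Folds present in all 4 library pairs were only counted. On data simulated for mutant against wild-type (14034 genes), 100% of 94 genes changed 4-fold and 88.7% of 106 changed 2-fold were called. The simulation used a set spread in place of the measured one, changed no genes of the lowest levels and added no shift between libraries. These shares are therefore a check of the method and no estimate of power in the real libraries.

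The genes, lists and tests were chosen with earlier results of these data known. Genes named were those called, the 5 largest fold changes in each comparison, those 1.5-fold different in all pairs, the most abundant of each role and, from other lists, the 2 largest fold changes. Further genes were named after their values were seen, to account for each role, each count and each unadjusted p under 0.05. Alternatives were other pseudocounts and filters, median-ratio scaling, all libraries in a single fit, a replicate block and leaving out each library. Tables and figures were made with Python 3.11.15, pandas 2.3.3 and matplotlib 3.10.9.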

Additional observations from a re-analysis of the deposited data

How the results depend on the processing

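With pseudocounts of 0.1 and 1, a minimum mean of 1 RPKM and median-ratio scaling, 0 genes of the group were called in any of the 3 comparisons. The number of genes of the group below 0 in mutant muscle was 30 to 48 over the other settings (48 of 53 with no filter) and 32 to 39 of 42 with a library left out, a count added after seeing the data. Over all genes, calls in mutant against wild-type numbered 24, against 0 with no filter, 43 with median-ratio scaling, 0 with all 6 libraries in a single fit and 10 to 106 with a library left out. In Wnt1-Ribotag against wild-type there was 1, against 0 with no filter, 2 with median-ratio scaling, 138 with all 6 libraries and 26 to 5965 with a library left out. In Wnt1-Ribotag against mutant there were 171, against 112 with no filter, 692 with all 6 libraries, 842 with the replicate block and 112 to 3672 with a library left out. Leaving out a Wnt1-Ribotag library leaves 1, which is then assumed to vary like the other group. With a library left out, the genes of the group called numbered 0 to 15 against wild-type and 0 to 7 against mutant, and 0 where the library left out was of whole muscle. Against mutant, 2 of 42 were called with all 6 libraries (Gdf11 and Tgfbr3), beside 692 of 14325 genes. With the replicate block 1 of 42 was called (Gdf11, adjusted p = 0.0299), beside 842 of 14325 genes. The block is no pairing of embryos: libraries of the same number came from different litters and preparations, and with 2 pairs their deviations correlated at 0.168 over 14325 genes. In mutant against wild-type, 0 genes of the group differed 1.5-fold or more in each pair of libraries (against 1.3% of all genes). With a pseudocount of 0.1 there was 1 (2.38%, against 1.98%). Such genes numbered 0 to 7 with a library left out (7 without mutant 1, or 16.7% against 5.95% of all genes, and 3 without wild-type 5, or 7.14% against 3.05%, with 0 without mutant 2 or wild-type 6, against 3.37% and 2.00%). In Wnt1-Ribotag against wild-type they numbered 2 (4.76%, against 8.5% of all genes) and 0 at 2-fold (against 2.34%). With a pseudocount of 0.1 they numbered 4 (9.52%, against 10.4%) and with a pseudocount of 1 they numbered 1 (2.38%, against 6.67%). With a library left out there were 4 to 11 (11 without Wnt1-Ribotag 1, or 26.2% against 22.1% of all genes, and 5 without Wnt1-Ribotag 2, or 11.6% against 27.4%). In Wnt1-Ribotag against mutant they numbered 2 (4.76%, against 10.1% of all genes) and 1 at 2-fold (2.38%, against 3.95%). With a library left out there were 3 to 10 (10 without Wnt1-Ribotag 1, or 24.4% against 21.8%, and 7 without Wnt1-Ribotag 2, or 16.3% against 28.5%). With a library left out 2 pairs remain in place of 4. Inhba in Wnt1-Ribotag against wild-type ranged from -1.68 to 0.23 with a library left out. The 11 genes under 0.5 RPKM were kept from the test by the filter, and 0 of all 53 were called in any comparison with no filter. For the genes at the floor in a Wnt1-Ribotag library (Bmp8a, Bmp10, Bmp15, Gdf15 and Inhbe), no more than about 1 read was listed there. Over all genes, those at the floor numbered 3581 and 2832 in wild-type, 3334 and 2724 in mutant and 5868 and 5128 in Wnt1-Ribotag libraries. Wild-type 5 had the lowest depth (100178863 mapped reads), below both Wnt1-Ribotag libraries (122770245 and 171266729), and held none of the genes named at its floor. The part of depth in the floor values was not tested. The cause of the changes between settings was not tested either.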
